A study of Mus musculus with 6 samples.

Results

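C-type lectin receptors of the Cd209, Clec4, Clec7 and Clec12 families were examined in RNA-seq libraries of megakaryocytes (MKs), the platelet-forming cells of the bone marrow (BM). The 10 genes, of 16579 in the expression table, were *Cd209e*, *Cd209a*, *Clec4a1*, *Clec4a2*, *Clec4a3*, *Clec4n*, *Clec4d*, *Clec4e*, *Clec7a* and *Clec12a*. They were chosen by name, with the genotype differences of these libraries already known, so their differences between genotypes are a description. Where thresholds are applied to them, the count describes the choice and supports nothing. All 10 were among the 12256 genes that passed the filter on low counts, and *Cd209e* passed only through the genotype in which it is higher.

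MKs had been sorted by flow cytometry from the BM of 3-month-old mice, in 3 libraries from Becn1f/f mice and 3 labelled Becn1f/f;Pf4-iCre. Both genotypes carried *Becn1*, an autophagy gene, flanked by loxP sites. The second also carried a codon-improved Cre recombinase under the promoter of *Pf4* (platelet factor 4), which is active in the MK lineage. The design thus asks how RNA of the sorted cells differs once *Becn1* can be deleted in that lineage. The libraries of the second genotype are called Cre libraries from here on. The labels number the libraries within a genotype but do not say whether each came from 1 mouse, so the spread between libraries may be partly technical.

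C-type lectin receptors of myeloid cells bind sugars and lipids on fungi, bacteria and dying cells through a carbohydrate-recognition domain. Dectin-1, Dectin-2 and Mincle activate the kinase Syk, either through their own tail or through the adaptor Fc receptor gamma chain, and Syk signals on through Card9. DCIR and MICL carry inhibitory tails that recruit phosphatases such as Ptpn6. In BM these receptors are known chiefly from monocytes, macrophages, neutrophils and dendritic cells (DCs).

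Library totals ran from 16467560 to 17156728 estimated counts. *Becn1* itself had 2034, 1892 and 2103 counts in the Becn1f/f libraries and 1775, 1731 and 1849 in the Cre libraries. Its log2 fold change was -0.15 (SE 0.12; adjusted p = 0.94, edgeR), and the genotypes are taken from the labels. A differentially expressed gene (DEG) was one with a fold change of at least 1.5 and an unadjusted P under 0.05. Across the 12256 genes, 1.36% passed these thresholds upward and 0.938% downward. An unadjusted P under 0.05 alone was reached by 773 of the 12256 (edgeR). An adjusted p under 0.05 was reached by 0.0408%, and the median log2 fold change was -0.02. The sorted cells carried RNA of several lineages. Mean FPKM (reads scaled to transcript length and library size, a level that can be compared between genes) in the Becn1f/f libraries was 55.7 for *Itga2b* (CD41, an MK integrin) but 1322 for *Ly6c2* (a monocyte antigen) and 10270 for *S100a8* (a neutrophil calcium-binding protein). *Itga2b* was the highest of the 14 MK and platelet markers listed, and *Itgb3* averaged 20.9, *Pf4* 17.9 and *Gp9* 2.10 FPKM in these libraries. A difference in such bulk libraries can come from fewer cells of a type or from less RNA per cell, and the 2 cannot be told apart.

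The genes lie in 3 groups of the mouse genome, given here in GRCm38 coordinates. *Clec4a1*, *Clec4a3*, *Clec4a2*, *Clec4n*, *Clec4d* and *Clec4e* fill 368 kb at chr6:122921848-123289870, and *Clec12a* and *Clec7a* lie 6053 kb further on, at chr6:129342691-129472779. *Cd209a* and *Cd209e* lie at chr8:3743397-3854309. The 250 bases before an annotated start (RefSeq, GRCm38.p6) were searched on both strands for GAGGAA, the core bound by PU.1, a master transcription factor of myeloid cells. The windows below are printed 5′ to 3′ in the direction of the gene, with GAGGAA or its reverse complement TTCCTC in capitals. They are shown because *Clec4a1*, *Clec7a* and *Cd209a* were higher in every Cre library, while *Clec4e* and *Clec12a* overlapped between genotypes. The RefSeq start used for *Clec12a* lies inside the longer GENCODE gene.
Clec4a1, chr6:122921598-122921847, plus strand: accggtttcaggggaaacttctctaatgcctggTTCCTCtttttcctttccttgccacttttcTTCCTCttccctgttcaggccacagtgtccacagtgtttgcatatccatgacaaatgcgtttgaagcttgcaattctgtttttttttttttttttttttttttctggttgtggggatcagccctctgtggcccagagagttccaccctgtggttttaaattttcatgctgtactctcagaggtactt
Clec7a, chr6:129472780-129473029, minus strand: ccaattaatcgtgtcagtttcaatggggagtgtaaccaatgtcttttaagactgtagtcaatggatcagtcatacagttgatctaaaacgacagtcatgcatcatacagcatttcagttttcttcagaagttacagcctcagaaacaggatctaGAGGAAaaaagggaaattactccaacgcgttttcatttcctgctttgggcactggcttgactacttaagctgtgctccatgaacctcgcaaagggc
Clec4e, chr6:123289872-123290121, minus strand: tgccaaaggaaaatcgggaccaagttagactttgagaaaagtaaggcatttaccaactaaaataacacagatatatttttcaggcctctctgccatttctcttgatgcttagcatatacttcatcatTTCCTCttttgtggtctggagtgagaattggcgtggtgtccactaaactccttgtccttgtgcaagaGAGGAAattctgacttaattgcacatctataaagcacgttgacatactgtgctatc
Clec12a, chr6:129349994-129350243, plus strand: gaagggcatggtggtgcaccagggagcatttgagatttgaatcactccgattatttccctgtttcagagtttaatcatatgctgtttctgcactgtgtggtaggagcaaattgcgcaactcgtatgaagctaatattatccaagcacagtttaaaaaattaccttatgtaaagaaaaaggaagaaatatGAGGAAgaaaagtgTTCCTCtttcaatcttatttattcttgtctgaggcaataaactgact
Cd209a, chr8:3748985-3749234, minus strand: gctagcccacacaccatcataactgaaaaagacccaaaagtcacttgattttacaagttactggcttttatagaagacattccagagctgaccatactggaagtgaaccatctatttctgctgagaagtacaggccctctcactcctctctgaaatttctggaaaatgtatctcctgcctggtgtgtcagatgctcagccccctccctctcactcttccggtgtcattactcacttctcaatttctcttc
GAGGAA was present in 6 of the 9 genes that had a window (*Clec12a*, *Clec4a1*, *Clec4a3*, *Clec4d*, *Clec4e* and *Clec7a*), against 23.3% of the 32851 windows of all genes. These shares differ in unit, because a receptor counted if any of its windows matched. *Clec4a3* matched only in the window of its second start. Receptors on either side of the DEG thresholds held it: *Clec4e* and *Clec12a* each had it on both strands, and *Cd209a* did not have it. *Clec4a1* and *Clec4a3* shared the run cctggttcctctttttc, 17 bases long, at chr6:122921626-122921642 and chr6:122952589-122952605. *Cd209a* and *Cd209e* shared tttctcttcctaag, 14 bases long, at chr8:3748980-3748993 (running past the start of *Cd209a*) and chr8:3854358-3854371. TTGCNNAA (C/EBP) matched *Clec12a* and *Clec4e* against 9.56% of all windows, and TGANTCA (AP-1) matched *Clec12a* against 6.75%. For NF-kB, GGGA and CC with any 4 bases between them matched *Clec4a1* against 17.6%. For the glucocorticoid receptor, ACANNNTGT matched *Clec4a2* and *Clec4e* against 5.84%. For IRF, GAAA and GAAA with any 2 bases between them matched none of the 9 genes against 2.98%. Matches are letters in a window and not measured binding.

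The order of the receptors by mean FPKM was the same in both genotypes. *Clec12a* came first, followed by *Clec7a*, *Clec4e*, *Clec4a2*, *Clec4a3*, *Cd209a*, *Clec4a1*, *Clec4d*, *Clec4n* and *Cd209e*. In the Becn1f/f libraries *Clec12a* averaged 212 ± 34.0 FPKM (SD, n = 3), *Clec7a* 87.1 ± 16.5 and *Clec4e* 83.8 ± 45.6, while *Clec4n* averaged 2.35 ± 0.280. *Cd209e* was close to absent, at 0.17, 0.08 and 0.08 FPKM. Among neighbours in this order, *Clec12a* and *Clec7a* did not overlap over the Becn1f/f libraries, nor did *Clec4a2* and *Clec4a3*, *Clec4d* and *Clec4n*, or *Clec4n* and *Cd209e*. The other neighbours overlapped. In the Cre libraries the gap at the top closed: *Clec12a* averaged 186 ± 22.7 FPKM and *Clec7a* 151 ± 36.8, and their ranges overlapped. So did those of *Clec4e* and *Clec4a2* and of *Clec4a3* and *Cd209a*, while the other neighbours were separate there.

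**Figure D1:**
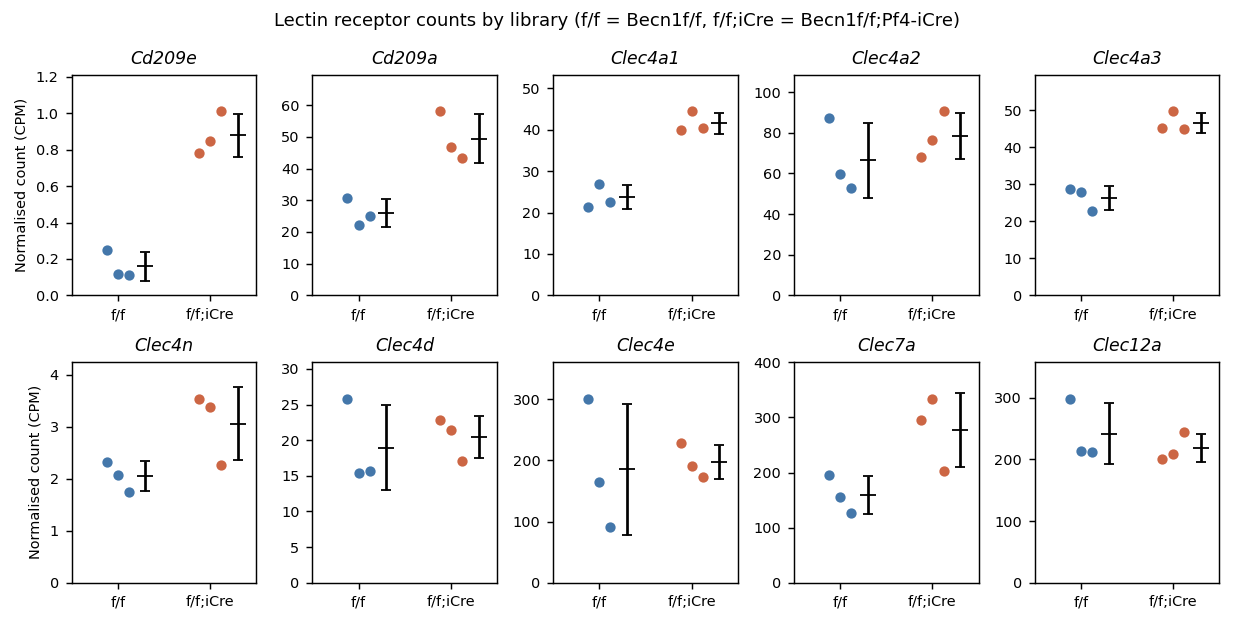
Normalised count (CPM, each panel with its own axis from 0) of each of the 10 receptors in the 3 Becn1f/f (f/f) and 3 Cre (f/f;iCre) libraries. Points are libraries, and the black mark beside them is the mean with its SD. *Cd209e*, *Cd209a*, *Clec4a1*, *Clec4a3* and *Clec7a* were higher in every Cre library than in any Becn1f/f library, and the other 5 overlapped.

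Dectin-1, encoded by *Clec7a* (gene 56644; chr6:129461591-129472779, minus strand), binds fungal beta-glucan and carries its own activating tail. Its estimated counts were 3126, 2719 and 2236 in the Becn1f/f libraries and 4935, 5539 and 3425 in the Cre libraries. Scaled to library size these gave 196, 156 and 126 against 296, 334 and 203 CPM (counts scaled to a common library size). The genotypes did not overlap, but the third Cre library lay much nearer to the Becn1f/f range than the other two. The log2 fold change was 0.80 (SE 0.20), and leaving out each library in turn moved it between 0.65 and 0.98.

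Dectin-2, MCL and Mincle are encoded side by side by *Clec4n* (gene 56620), *Clec4d* (gene 17474) and *Clec4e* (gene 56619; chr6:123281789-123289870, minus strand), and pair with the Fc receptor gamma chain. *Clec4e*, whose product recognises mycobacterial and damaged-cell glycolipids, had 301, 164 and 91.1 CPM in the Becn1f/f libraries and 228, 190 and 173 CPM in the Cre libraries. The Cre values all fell inside the Becn1f/f range, which itself spanned 3.30-fold. The log2 fold change was 0.09 (SE 0.32), and was -0.24 without the third Becn1f/f library and 0.63 without the first. *Clec4d* showed a like overlap at a lower level, with 25.8, 15.4 and 15.7 CPM against 22.8, 21.4 and 17.1 CPM and a log2 fold change of 0.11 (SE 0.21). *Clec4n*, the receptor for fungal mannan, was scarce, at 37, 36 and 31 counts against 59, 56 and 38. On the CPM scale the third Cre library lay within the Becn1f/f range, and the log2 fold change was 0.58 (SE 0.27).

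*Clec4a1* (gene 269799; chr6:122921848-122934619, plus strand), *Clec4a2* (gene 26888) and *Clec4a3* (gene 73149; chr6:122952515-122969875, plus strand) belong to the DCIR family, and *Clec4a2* encodes DCIR1, which has an inhibitory tail. *Clec4a1* had 21.4, 27.0 and 22.6 CPM in the Becn1f/f libraries and 39.9, 44.4 and 40.3 CPM in the Cre libraries. *Clec4a3* had 28.7, 27.9 and 22.7 CPM against 45.2, 49.8 and 45.0 CPM. These 2 genes lie next to each other, were the most even of the receptors over the Cre libraries, and had log2 fold changes of 0.81 (SE 0.14) and 0.82 (SE 0.14). *Clec4a2*, further along the same group, was higher in level and less even. It had 87.5, 59.5 and 52.7 CPM against 67.9, 76.7 and 90.5 CPM, and the genotypes overlapped (log2 fold change 0.24, SE 0.19). Runs of 50 bases were compared only among the 10 receptors and *Clec4a4*, *Clec4b1*, *Clec4b2*, *Cd209b*, *Cd209c*, *Cd209d*, *Cd209f* and *Cd209g*. The transcript of *Clec4a2* was the only one of the 10 with a shared run, over 7.48% of its positions. A few of its reads could thus have been assigned elsewhere.

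*Clec12a* (gene 232413; chr6:129342691-129365303, plus strand) encodes MICL, an inhibitory receptor of granulocytes and monocytes that binds uric acid crystals. It was the only receptor with a lower mean in the Cre libraries. It had 298, 214 and 212 CPM in the Becn1f/f libraries and 201, 209 and 244 CPM in the Cre libraries. The ranges overlapped, the log2 fold change was -0.15 (SE 0.16), and it was 0.04 without the first Becn1f/f library. The count ratio of *Clec7a* to *Clec12a* within a library was 0.657, 0.730 and 0.594 in the Becn1f/f libraries and 1.47, 1.60 and 0.834 in the Cre libraries. In other words, reads of *Clec7a* exceeded those of *Clec12a* only in the first and second Cre libraries, without scaling to transcript length. In FPKM, *Clec7a* and *Clec12a* had 156 and 168, 185 and 179, and 112 and 211 in the Cre libraries. On that scale *Clec7a* was above *Clec12a* only in the second Cre library, and by little.

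**Figure D2:**
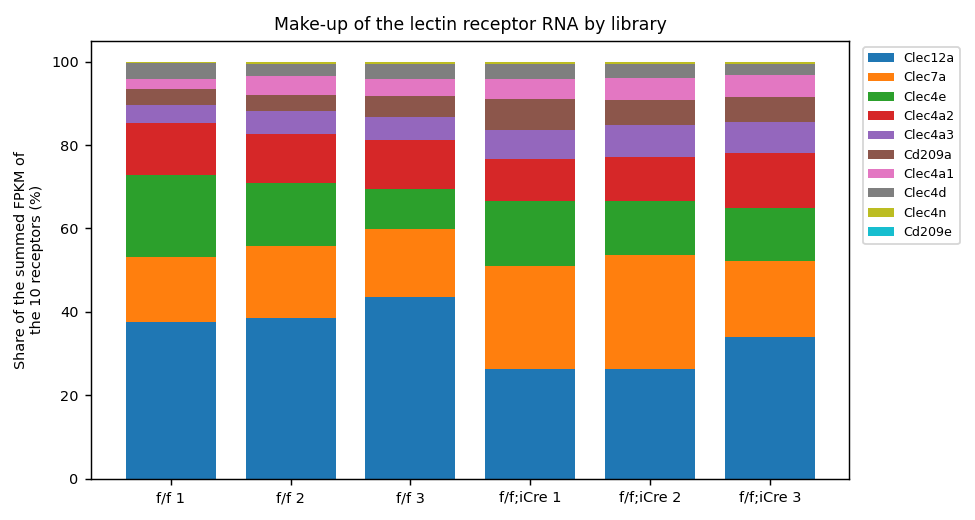
Share of the summed FPKM of the 10 receptors (percent) taken by each receptor in each of the 6 libraries; each bar is 1 library and adds up to the whole. *Clec12a* took 37.5%, 38.6% and 43.6% in the Becn1f/f libraries and 26.4%, 26.4% and 34.1% in the Cre libraries, and *Clec7a* took 15.5%, 17.3% and 16.2% against 24.5%, 27.3% and 18.0%.

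*Cd209a* (gene 170786; chr8:3743397-3748984, minus strand) encodes the DC-SIGN relative found on mouse DCs and monocyte-derived cells. It had 30.9, 22.1 and 25.0 CPM in the Becn1f/f libraries and 58.0, 46.8 and 43.5 CPM in the Cre libraries. The lowest Cre library was thus well above the highest Becn1f/f library, and the log2 fold change was 0.93 (SE 0.17). *Cd209e* (gene 170780; chr8:3847965-3854309, minus strand), a further member of this family, had only 4, 2 and 2 counts against 13, 14 and 17. All Cre libraries were above all Becn1f/f libraries, but the sums were only 8 and 44 counts. The fitted log2 fold change was 2.43 (SE 0.48), but on the log2(FPKM + 1) scale it was 0.53, because FPKM values under 1 weigh little there.

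As a group, 9 of the 10 receptors had a higher mean and 1 a lower mean in the Cre libraries. The median log2 fold change was 0.69, against -0.02 over all tested genes. The same 5 receptors (*Cd209e*, *Cd209a*, *Clec4a3*, *Clec4a1* and *Clec7a*) passed the upward DEG thresholds, beside 1.36% of all genes, and were higher in every Cre library, beside 5.42% of all genes. None was lower in every Cre library, beside 5.18%. Since the genes were chosen from this contrast, and *Cd209e* had to differ to pass the filter, these counts are no evidence of a difference. Of the 5 receptors past the thresholds *Clec7a* had the smallest fold change, 1.74, and of the other receptors *Clec4n* had the largest, 1.49. The summed level was 992, 688 and 570 CPM in the Becn1f/f libraries and 963, 976 and 860 CPM in the Cre libraries, so the first Becn1f/f library was above every Cre library in total. That library was the highest of its genotype for 9 of the 10 receptors, and without it 7 receptors passed the thresholds, *Clec4n* and *Clec4e* being added.

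**Figure D3:**
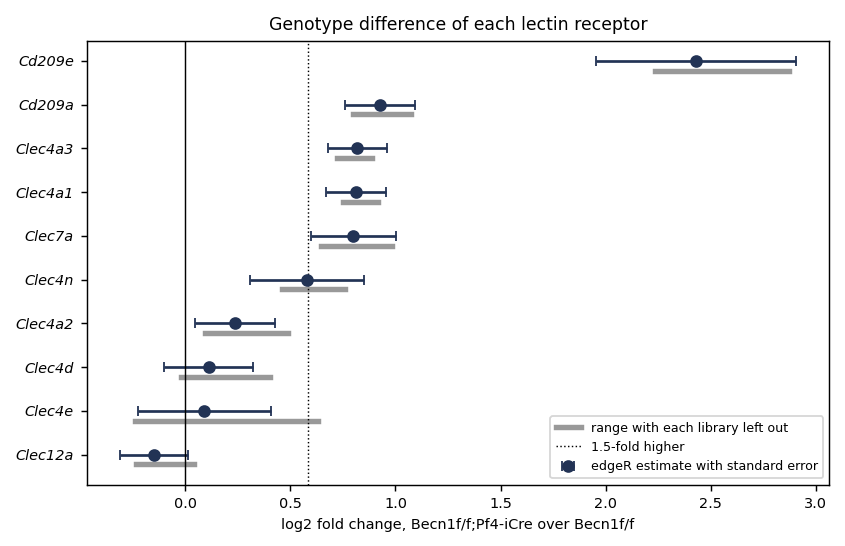
Log2 fold change of each receptor (Cre over Becn1f/f libraries, edgeR) as points with bars of 1 SE; the grey bar under each is the range when each library is left out in turn, and the dotted line marks a 1.5-fold higher level. *Cd209e* stands highest at 2.43, *Clec12a* lowest at -0.15, and *Clec4e* moves from -0.24 to 0.63 with the library left out.

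Base composition moved with the genotype difference. Across the 11953 tested genes matched to an annotated transcript, the log2 fold change fell with GC content. Spearman's rho was -0.35, across genes, which are not independent replicates. The receptors' transcripts were all below the median of 50.1%, from 36.8% in *Clec4a2* to 45.3% in *Clec4n*. With trends in GC content and length taken out of each library, the log2 fold changes of the 5 receptors named above were 2.39 (*Cd209e*), 0.91 (*Cd209a*), 0.75 (*Clec4a3*), 0.78 (*Clec4a1*) and 0.73 (*Clec7a*). The same 5 passed the DEG thresholds. *Clec4a2* went from 0.24 to 0.09.

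Neighbouring genes in the chromosome 6 group did not share one difference. *Clec4b1*, which sits between *Clec4a3* and *Clec4a2*, had 2.82, 2.24 and 1.02 CPM in the Becn1f/f libraries and 3.54, 3.08 and 3.74 CPM in the Cre libraries. It passed the DEG thresholds with a log2 fold change of 0.77 (SE 0.33; adjusted p = 0.75, edgeR), but not when the third Becn1f/f library or the first or the third Cre library was left out. Next to *Clec4a2* the value for *Clec4b2* was -0.44 (SE 0.46; adjusted p = 0.96, edgeR). The nearest tested genes outside the group, *Necap1* on one side and *Cd163* on the other, had -0.09 and 0.70. Their midpoints lay at -40.1 and 1396 kb from the first base of *Clec4a1*, so *Cd163* was far beyond the end of the 368 kb group. Beyond *Cd209e* on chromosome 8, *Cd209d* had 0.42 (SE 0.24) and *Cd209c* 0.07. Between *Clec12a* and *Clec7a*, *Clec9a* (a receptor for dead cells on cross-presenting DCs) had 0.14 and *Clec1a* 0.22. *Clec1b*, which lies there too and encodes the platelet receptor CLEC-2, had 1.94, 0.978 and 1.07 CPM against 1.14, 0.784 and 0.831 CPM. Its values overlapped, and its log2 fold change was -0.52 (SE 0.37; adjusted p = 0.90, edgeR).

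**Figure D4:**
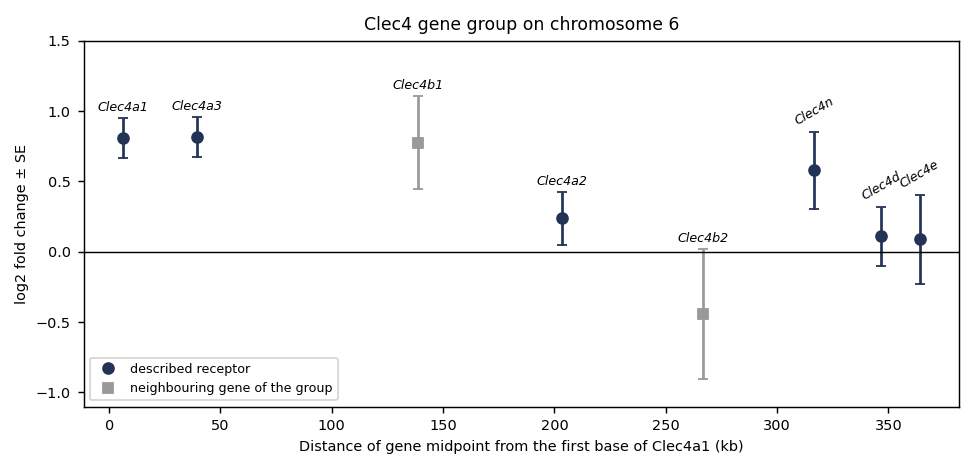
Log2 fold change (Cre over Becn1f/f libraries, with bars of 1 SE) of the tested genes of the Clec4 group against the distance in kb of the gene's midpoint from the first base of *Clec4a1*; circles are the receptors described and squares the other genes of the group. *Clec4a1* (0.81), *Clec4a3* (0.82) and *Clec4b1* (0.77) lie at the left, *Clec4a2* (0.24) and *Clec4b2* (-0.44) in the middle, and *Clec4n* (0.58), *Clec4d* (0.11) and *Clec4e* (0.09) at the right.

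Of 32 other C-type lectins listed, 18 passed the filter, 11 with a higher and 7 with a lower mean in the Cre libraries. Their median log2 fold change was 0.15, against -0.02 over all genes. The upward DEG thresholds were passed by 3 (*Mrc1*, *Clec10a* and *Clec4b1*), the downward ones by 0, and an adjusted p under 0.05 by 0. An unadjusted P under 0.05 was reached by 5 of the 18, beside 773 of the 12256 tested genes (edgeR). These were the 3 just named, *Cd69* and *Cd72*, and they went in both directions. *Cd69* had a log2 fold change of 0.46, with overlapping CPM. *Cd72* had -0.43 and was lower in every Cre library. By CPM, 4 of the 18 were higher in every Cre library and 2 were lower, beside 5.42% and 5.18% of all genes. *Mrc1*, the macrophage mannose receptor, went from 9.31 ± 1.70 to 22.3 ± 4.26 CPM (SD, n = 3), a log2 fold change of 1.26 (SE 0.19; adjusted p = 0.057, edgeR). *Clec10a*, a galactose-type lectin of macrophages and DCs, went from 17.9 ± 1.48 to 30.4 ± 4.97 CPM, a log2 fold change of 0.76 (SE 0.16; adjusted p = 0.15, edgeR). Both were higher in all 3 Cre libraries.

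For genes that carry the receptors' signals, the median log2 fold change lay near that of all genes. Of 35 genes for adaptors, kinases, phosphatases, other signalling proteins and transcription factors of these pathways, 19 had a higher and 16 a lower mean, and the median log2 fold change was 0.02. The DEG thresholds were passed by 0 in either direction, with edgeR and with DESeq2. An unadjusted P under 0.05 was reached by 2 of the 35 with edgeR, close to the share over all tested genes (773 of 12256). The 2 genes were *Lyn*, a Src-family kinase, and *Nfatc2*, a calcium-dependent transcription factor, with log2 fold changes of 0.41 and 0.33. Both are named for their values. The Fc receptor gamma chain gene *Fcer1g* had a log2 fold change of 0.08 (SE 0.17; adjusted p = 0.98, edgeR), and the DAP12 adaptor gene *Tyrobp* one of 0.12 (SE 0.20; adjusted p = 0.98, edgeR). *Syk* stood at 0.01 (SE 0.14), *Card9* at -0.10 (SE 0.16) and *Ptpn6* at -0.03 (SE 0.15), with adjusted p of 0.997, 0.97 and 0.99 (edgeR).

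Of 20 genes known to respond to these receptors, among them cytokines, chemokines, enzymes and feedback regulators, 16 passed the filter, 8 with a higher and 8 with a lower mean, at a median log2 fold change of 0.02. An unadjusted P under 0.05 was reached by 4 of the 16 (edgeR), in both directions, beside 773 of the 12256 tested genes. The chemokine genes *Ccl3* and *Ccl4* had log2 fold changes of 0.48 and 0.37, and *Il1b* (interleukin-1 beta) and *Cxcl1* had -0.52 and -2.21. The values of the 2 groups did not overlap for 3 genes that were higher and 2 that were lower in the Cre libraries, beside 5.42% and 5.18% of all genes. *Cxcl1*, a neutrophil-attracting chemokine, was the 1 that passed the DEG thresholds, and it fell. It had 17.9, 11.6 and 4.74 CPM in the Becn1f/f libraries and 2.70, 2.59 and 2.08 CPM in the Cre libraries, with a log2 fold change of -2.21 (SE 0.40; adjusted p = 0.094, edgeR). All Cre values were below all Becn1f/f values.

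Mean levels of markers of other cell types also differed between the genotypes. The marker lists were chosen with earlier results of these data known, and no marker in them had an adjusted p under 0.05 (edgeR). Over all genes, 1.36% passed the upward and 0.938% the downward DEG thresholds, and 5.42% were higher in every Cre library. All 14 tested of 15 monocyte and macrophage markers had a higher mean in the Cre libraries, at a median log2 fold change of 0.39, and 3 passed the upward DEG thresholds (*C1qc*, *Cx3cr1* and *Cd163*). Their summed level was 2427 to 2933 CPM in the Becn1f/f libraries and 3112 to 3414 CPM in the Cre libraries. Abundant genes of the list varied. *Ccr2* (a chemokine receptor of monocytes) averaged 597 against 834 CPM and *Ms4a6c* 351 against 459 CPM, both higher in every Cre library, while *Csf1r* (the macrophage growth factor receptor) averaged 431 against 516 CPM and *Adgre1* (F4/80) had a log2 fold change of 0.00. *Vsig4*, the one untested marker, was near 0 in both genotypes.

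Of 12 DC markers 8 had a higher and 4 a lower mean, at a median of 0.25, and *Flt3*, *H2-Aa* and *H2-Ab1* passed the upward thresholds. The sum of the DC markers was 823 to 1003 CPM against 1113 to 1434 CPM. Most of that sum came from *Cd74*, *H2-Aa*, *H2-Ab1* and *Flt3*, with means of 356, 125, 130 and 71.1 CPM against 528, 206, 199 and 119 CPM. The 4 markers with a lower mean were *Itgax*, *Siglech*, *Ccr9* and *Xcr1*, with log2 fold changes of -0.05, -0.03, -0.03 and -0.02. *Xcr1*, of cross-presenting DCs, averaged 0.731 and 0.719 CPM. Neutrophil markers lay the other way, with 11 of 12 lower at a median of -0.41 (*Mmp9* passing the downward thresholds) and overlapping sums of 9281 to 12306 CPM against 7081 to 9540 CPM. All 8 erythroid markers had a lower mean, at a median of -0.79, and *Klf1*, *Alas2*, *Slc4a1*, *Rhag* and *Ermap* passed the downward thresholds. Their sums overlapped, at 178 to 247 CPM against 146 to 193 CPM. B cell markers (6 tested) had a median of -0.22, and T and NK cell markers (6 of 8 tested) one of -0.13, with none past the thresholds in either list. MK and platelet markers (13 of 14 tested) had a median of -0.03, with only *Pf4* past the downward thresholds, and sums of 285 to 393 CPM against 297 to 374 CPM. The part of these cells in the receptor differences was not tested.

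**Figure D5:**
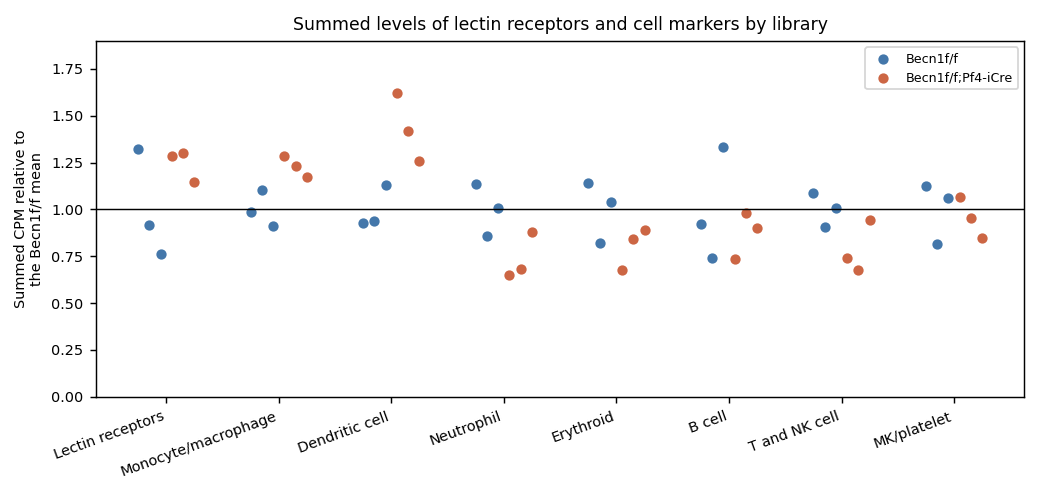
Summed CPM of the 10 receptors and of the marker genes of each cell type, relative to the mean of the Becn1f/f libraries (line at 1); points are libraries. The sums of monocyte and macrophage markers (1.17 to 1.28) and of DC markers (1.26 to 1.62) lie higher in every Cre library. Of the 12 DC markers, 4 had a lower mean there, and most of the DC sum came from *Cd74*, *H2-Aa*, *H2-Ab1* and *Flt3*. The sums of the receptors overlap, at 0.760 to 1.32 in the Becn1f/f and 1.15 to 1.30 in the Cre libraries.

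The 5 other genes whose pattern over the 6 libraries lay closest to the median pattern of the receptors were *Actn3*, *Ccl9*, *Zfp948*, *Klf4* and *Atp7a*. Their mean absolute difference from it on the log2 scale was 0.047, 0.048, 0.054, 0.064 and 0.064. *Ccl9*, a chemokine of myeloid cells, had 324, 270.1 and 243 CPM in the Becn1f/f libraries and 390.0, 472 and 392 CPM in the Cre libraries. *Klf4*, a transcription factor of monocyte differentiation, had 540, 424 and 417 CPM against 710.1, 771 and 718 CPM. For both genes every Cre library was above every Becn1f/f library, and they were picked for this likeness, so nothing was tested.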

How the data were processed

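RNA of MKs sorted from mouse BM was sequenced on the DNBSEQ platform, and the authors removed low-quality reads and mapped with HISAT. The submitters' processing notes also name Bowtie2 and GRCm39/mm39. The counting tool is not given in the sources used here. The deposited table holds estimated counts (not all whole, so rounded for the count tests) and FPKM values computed by the authors. Of its per-sample columns, 16 were not used, nor were 8 group means. Some of the 16 hold other units, and the others belong to a further library, headed as a knockout (KO), that matches no sample label.

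Samples were grouped by title, 3 per genotype. Genotypes were compared over all genes with edgeR 4.0.16 (R 4.3.3; TMM normalisation, filterByExpr, quasi-likelihood test, Benjamini-Hochberg adjustment), and CPM are TMM-scaled. DEGs had a fold change of at least 1.5 and an unadjusted P under 0.05. An exact permutation test of 3 against 3 libraries cannot go below p = 0.1 and was not used. Alternatives were DESeq2 1.42.0, DESeq2 size factors, other count filters, limma 3.58.1 on log2(FPKM + 1) or log2(FPKM + 0.1), a replicate block and each library left out; a correction for GC content and length was added after seeing the data. The pipeline was tested on simulated data. Replicates differed beyond counting error, and no 2 libraries of the same genotype were copies.

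The receptors and all gene lists (other C-type lectins, signalling, response and cell type markers) were chosen with earlier results of these data known. A marker of the monocyte and macrophage list was left out and is not reported here. Genes named are the receptors, *Becn1*, list genes past the DEG thresholds, *Clec1b*, *Clec4b1*, *Fcer1g*, *Tyrobp*, *Syk*, *Card9* and *Ptpn6* by role, and the 5 genes closest in pattern; neighbours, abundant or defining markers and other genes at an unadjusted P under 0.05 were named after their values were seen. Positions are from GENCODE M21 (GRCm38), not the submitters' build, and were used only for order and sequence. RefSeq windows matched 9 of the 10 receptors (no entry for *Clec4n*); *Clec4a3* and *Clec7a* have more than 1 start.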

Additional observations from a re-analysis of the deposited data

How the results depend on the processing

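The number of receptors past the DEG thresholds varied with some settings. It was 4 without *Cd209e*, which was not called on log2(FPKM + 1) (0.53) and not tested with at least 10 counts in every library or a mean FPKM of at least 1. Leaving out each library gave 5 to 7: 7 without the first Becn1f/f library and 6 without the third Cre library, with *Clec4n* added. Over all genes, upward DEGs numbered 167, but 88 with log2(FPKM + 1) and 96 with the FPKM minimum, and 133 to 267 with a library left out (the highest without the first Becn1f/f library). Downward DEGs numbered 115, but 33, 41 and, with log2(FPKM + 0.1), 216, and 92 to 208 with a library left out (the highest without the second Becn1f/f library). Genes with an adjusted p under 0.05 numbered 5 with edgeR, 71 with DESeq2, 23 without a count filter, 8 with the FPKM minimum or the GC correction, 0 with limma on log2(FPKM + 1) or log2(FPKM + 0.1), and 0 to 27 with a library left out (27 without the first and 1 without the second Becn1f/f library, 0 without the first and 2 without the second Cre library). Of the other C-type lectins, 3 were called, 5 with log2(FPKM + 0.1), which added *Cd209f* and *Asgr2*, and 3 to 4 with a library left out. Response genes gave 0 upward DEGs, and 0 to 1 with a library left out (*Il6* without the first Becn1f/f library); downward they gave 1, 2 without a count filter (*Csf3* added), and 1 to 4 with a library left out, 4 without the third Becn1f/f library, 3 without the first and 2 without the second Cre library. Signalling genes gave 0 throughout. The causes were not tested.

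Same-numbered libraries of the genotypes correlated at 0.07, -0.27 and 0.20 in their deviations from the genotype mean. With 3 libraries per genotype, such values cannot settle whether the numbers pair the libraries. With the replicate block, 180 genes were called upward, 116 downward and 19 at an adjusted p under 0.05, and the same 5 receptors were called. Depth limits *Cd209e* most, with 2 to 17 counts a library.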
